A study of Mus musculus with 4 samples.

Results

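Genes of TGF-beta and BMP signalling were followed in donor-derived myeloid progenitors with and without Bcor loss. The 10 genes were *Tgfb1*, *Acvrl1*, *Tgfbr1*, *Tgfbr2*, *Eng*, *Smad1*, *Smad2*, *Smad3*, *Smad4* and *Smad7*, taken by symbol, and all 10 were among the 12067 genes of the table. The set is built around *Acvrl1*, a gene chosen for its values in these same libraries. The set was otherwise selected on pathway membership, with the difference between genotypes in these libraries already known. This difference thus counts as used in the choice. It is given for each of the 10 genes as a description, with its standard error and with no p-value, and their counts of calls are printed beside the share of all genes without being read as a test. Bone marrow was transplanted into *Ptprca* mice, which are congenic and carry CD45.1. The sorted cells were CD45.2+Lin-cKIT+Sca-1- (KL cells), taken at 20 weeks. In the BcorΔE9-10 group (n = 2) the donors were scl-Cre-ERT +; Bcorfl/y, and in the BcorWT group (n = 2) they were Bcorfl/y without the transgene. The donors of both groups thus carried the floxed allele, and the study describes tamoxifen treatment for its mutant and its control animals. The transgene, which the study calls HSC-SCL-Cre-ERT, places Cre under stem cell control elements of *Tal1*. Cre removes exons 9 and 10 of *Bcor* and leaves a truncated protein. The study's methods give an age of 3 to 6 months at tamoxifen treatment. Whether animals were pooled for a library is not given in the sources used here, so p-values measure only the spread between these samples, which may be technical.

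TGF-beta ligands bind a type II receptor kinase, which phosphorylates a type I receptor kinase, which in turn phosphorylates receptor Smads. The TGF-beta and activin branch uses Smad2 and Smad3, the BMP branch uses Smad1 and its relatives, and both need Smad4 to act on genes in the nucleus. Smad7 is induced by the pathway and inhibits it. In the bone marrow TGF-beta is best known for restraining the division of stem cells. *Acvrl1* encodes ALK1, a type I receptor for certain BMP ligands, and *Eng* encodes endoglin, a co-receptor that works with it. Both are known best from endothelial cells.

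The libraries were Quant-seq libraries, which read transcripts only close to the poly-A tail, so that counts are not divided by gene length. Counts totalled between 3825289.5 and 6253100.5 a library, and 3 counts corresponded to between 0.489 and 0.876 CPM (the count relative to the TMM-scaled library size). No molecular identifiers are described, so these floors cover counting error only. The BcorWT replicates stood apart from each other by at least 1 log2 unit for 24.3% of all genes. The transcript *Gm42418* took 27.9% of the counts in replicate 1 and 1.43% in replicate 2, against 16.3 and 14.3% in BcorΔE9-10. *Bcor* itself had 104 and 113 counts in BcorΔE9-10 and 58 and 79 in BcorWT (log2 fold change 0.25, standard error 0.36). These reads lie 3′ of the deleted exons and do not check the genotype. *Kit*, which defines the gate, was at 52.1 and 61.9 CPM in BcorΔE9-10 and 53.7 and 29.4 CPM in BcorWT, while *Ly6a* (Sca-1) did not exceed 3.80 CPM in any library. *S100a8*, a granule-stage neutrophil gene, was between 31874 and 72238 CPM although the lineage gate the study describes leaves out Gr-1+ and CD11b+ cells.

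Promoter sequences are shown for the ligand gene and the co-receptor gene that were lower in BcorΔE9-10, and for the receptor gene that was higher. They are the RefSeq windows of 300 bases (GRCm38.p6), from 250 bases before the start of the gene to 50 bases after it, written 5′ to 3′ on the gene's strand. Capitals mark GGGCGG, the GC box bound by Sp1, and GGAA, the core bound by ETS factors, each on both strands. The windows are chr7:25686752-25687051 (plus strand) for *Tgfb1*, chr2:32646345-32646644 (plus strand) for *Eng* and chr9:116175314-116175613 (minus strand) for *Tgfbr2*.
Tgfb1: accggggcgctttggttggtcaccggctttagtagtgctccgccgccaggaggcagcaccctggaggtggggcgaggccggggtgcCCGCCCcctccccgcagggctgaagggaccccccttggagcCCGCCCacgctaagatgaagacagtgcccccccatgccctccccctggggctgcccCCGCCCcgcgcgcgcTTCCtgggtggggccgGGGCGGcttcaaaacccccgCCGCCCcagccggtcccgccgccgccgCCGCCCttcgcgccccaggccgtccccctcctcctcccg
Eng: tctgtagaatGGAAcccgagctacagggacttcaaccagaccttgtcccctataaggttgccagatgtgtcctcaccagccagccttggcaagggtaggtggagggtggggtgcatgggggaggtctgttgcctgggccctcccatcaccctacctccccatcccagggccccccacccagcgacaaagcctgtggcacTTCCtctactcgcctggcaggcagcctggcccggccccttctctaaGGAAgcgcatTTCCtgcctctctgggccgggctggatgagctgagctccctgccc
Tgfbr2: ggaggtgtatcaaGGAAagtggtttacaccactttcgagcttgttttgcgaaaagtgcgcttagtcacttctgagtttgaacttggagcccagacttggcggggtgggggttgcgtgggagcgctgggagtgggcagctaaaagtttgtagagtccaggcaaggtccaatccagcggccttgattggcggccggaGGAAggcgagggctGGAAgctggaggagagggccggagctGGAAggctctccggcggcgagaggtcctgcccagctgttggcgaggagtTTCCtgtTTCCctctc

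The *Tgfb1* window was GC-rich (77.0% G and C, against a median of 52.7% over 27025 promoters) and held 6 GC boxes and 1 ETS core. The *Eng* window held 0 GC boxes and 4 ETS cores, and the *Tgfbr2* window held 0 GC boxes and 6 ETS cores. The matches to these motifs did not overlap each other. At least 1 GC box was found in 35.9% of all promoters of this length and at least 1 ETS core in 95.9%, so an ETS core by itself sets no promoter apart. Smad elements were searched in the same way. CAGACA was present in 5684 of all 27025 promoters, GGCGCC in 12.0% and the palindrome GTCTAGAC in 0.211%, and none of these was found in the 3 windows shown. RefSeq windows were matched for 6 of the 10 genes, not for *Acvrl1*, *Smad2*, *Smad4* and *Smad7*. Of the matched genes not shown, *Tgfbr1* had 2 windows, 1 with 1 GGCGCC and the other with 1 CAGACA. The windows of *Smad1* and *Smad3* held none of these Smad elements.

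By mean level over the 4 libraries the genes ran from *Eng* at 51.9 CPM and *Tgfb1* at 45.6 CPM, through *Smad2* at 29.9, *Smad4* at 23.0, *Acvrl1* at 12.5, *Smad7* at 11.6, *Smad1* at 10.8 and *Smad3* at 9.99, to *Tgfbr1* at 8.21 and *Tgfbr2* at 4.43 CPM. Neighbours in this order overlapped in their ranges over the libraries, except that *Smad2* (27.7 to 32.7 CPM) lay above *Smad4* (14.9 to 26.6 CPM) and *Tgfbr1* (7.66 to 8.76 CPM) above *Tgfbr2* (0.876 to 7.17 CPM). The order was not the same within each genotype, since the gene with the lowest mean was *Acvrl1* (5.64 CPM) in BcorΔE9-10 and *Tgfbr2* (1.94 CPM) in BcorWT.

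**Figure D1:**
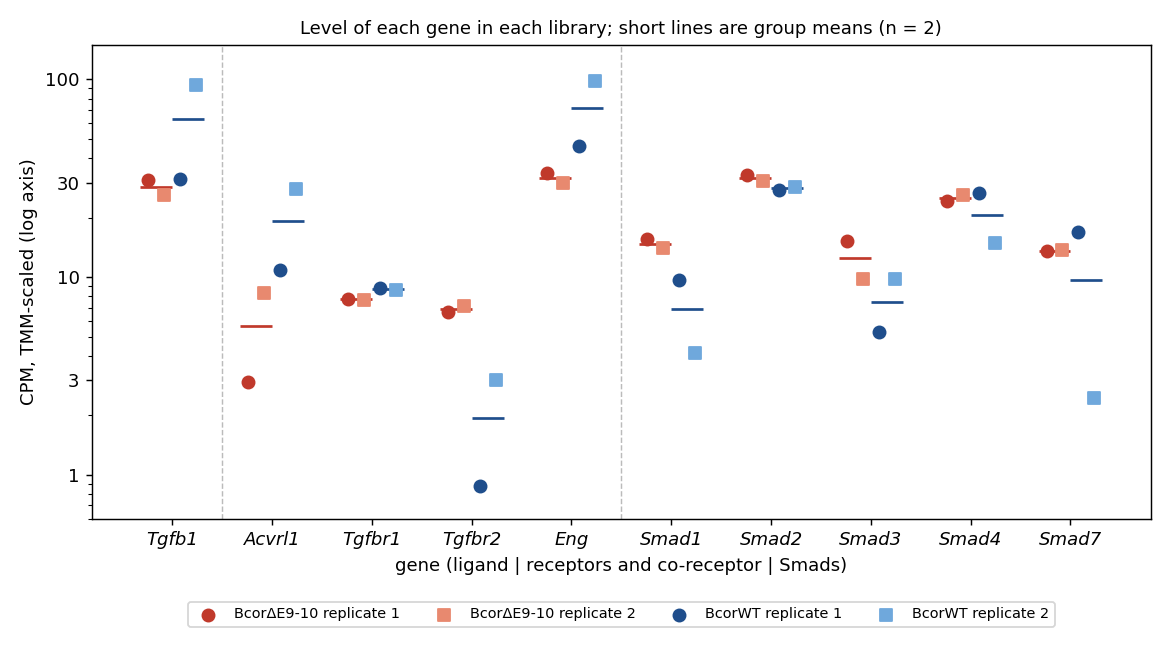
Level of each of the 10 genes in each library, in TMM-scaled CPM on a log axis, with circles and squares for replicates 1 and 2, red for BcorΔE9-10 and blue for BcorWT, and short lines for the group means (n = 2). *Tgfb1*, *Acvrl1* and *Eng* have their highest point in BcorWT replicate 2, and *Smad1*, *Smad4* and *Smad7* have their lowest point there.

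*Tgfb1* (ENSMUSG00000002603, chromosome 7 from 25687002 to 25705077, GRCm38) encodes the main TGF-beta ligand of blood cells. It had 167 and 160 counts in BcorΔE9-10 and 107 and 501 in BcorWT, or 30.9 and 26.1 CPM against 31.2 and 94.3 CPM. BcorWT replicate 2 alone was high, and BcorWT replicate 1 lay just above BcorΔE9-10 replicate 1. The group means were 28.5 ± 3.38 CPM (SD, n = 2) and 62.8 ± 44.6 CPM. The log2 fold change (BcorΔE9-10 against BcorWT, edgeR) was -1.15 with a standard error of 0.50, and it came to -0.14 without BcorWT replicate 2 and -1.73 without BcorWT replicate 1.

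*Acvrl1* (ENSMUSG00000000530, chromosome 15 from 101128522 to 101145336) had 16 and 51 counts in BcorΔE9-10 and 37 and 148 in BcorWT. Its levels were 2.96 and 8.31 CPM against 10.8 and 27.9 CPM. Both BcorΔE9-10 libraries lay below both BcorWT libraries, but BcorΔE9-10 replicate 2 and BcorWT replicate 1 were close. The means were 5.64 ± 3.79 CPM (SD, n = 2) and 19.3 ± 12.1 CPM, a log2 fold change of -1.78 with a standard error of 0.64. The replicates of a genotype were 1.38 (BcorΔE9-10) and 1.33 (BcorWT) apart on the log2 scale, the larger value in replicate 2 each time. The difference between genotypes was -0.93 without BcorWT replicate 2 and -2.71 without BcorΔE9-10 replicate 2. *Gm16031*, annotated on the opposite strand within the 5′ part of *Acvrl1*, is not in the table.

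*Eng* (ENSMUSG00000026814, chromosome 2 from 32646595 to 32682669) had 182 and 183 counts in BcorΔE9-10 and 157 and 522 in BcorWT. Its levels were 33.6 and 29.8 CPM against 45.8 and 98.2 CPM, so the groups did not overlap and BcorWT replicate 2 was again the highest. The log2 fold change was -1.19 with a standard error of 0.41, and -0.53 without BcorWT replicate 2. The 3′ end of *Eng* overlaps that of *Fpgs*, a folate enzyme gene on the opposite strand, by 61 bases, and it is not stated whether the counting used the strand. *Fpgs* had 28.8 and 25.3 CPM in BcorΔE9-10 and 37.7 and 69.4 CPM in BcorWT, a log2 fold change of -0.99 with a standard error of 0.38. Reads from 1 gene of this pair could have been counted on the other, so the value of *Eng* is uncertain to that extent.

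*Tgfbr1* (ENSMUSG00000007613, chromosome 4 from 47353222 to 47414931) encodes ALK5, the type I receptor of TGF-beta, and was the steadiest of the 10 genes. It had 42 and 47 counts against 30 and 46, or 7.76 and 7.66 CPM against 8.76 and 8.66 CPM, with a log2 fold change of -0.17 (standard error 0.44). Although these 4 values did not overlap between genotypes, the difference was well within its standard error. By counts *Acvrl1* lay below *Tgfbr1* in BcorΔE9-10 replicate 1 and above it in the other 3 libraries.

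*Tgfbr2* (ENSMUSG00000032440, chromosome 9 from 116084293 to 116175360) encodes the type II receptor of TGF-beta. It had 36 and 44 counts in BcorΔE9-10 and 3 and 16 in BcorWT, or 6.65 and 7.17 CPM against 0.876 and 3.01 CPM. Both BcorΔE9-10 libraries lay above both BcorWT libraries, and BcorWT replicate 1 stood at the floor of 3 counts. The means were 6.91 ± 0.367 CPM (SD, n = 2) and 1.94 ± 1.51 CPM. The log2 fold change was 1.76 with a standard error of 0.69, and it was 1.19 without BcorWT replicate 1 and 2.94 without BcorWT replicate 2, where it rests on the library with 3 counts.

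All 5 Smad genes had a positive log2 fold change in the fit with all libraries, but without BcorWT replicate 2 *Smad4* and *Smad7* did not. *Smad1* (ENSMUSG00000031681, chromosome 8 from 79338395 to 79399518), the receptor Smad of the BMP branch, had 84 and 86 counts in BcorΔE9-10 and 33 and 22 in BcorWT. Its levels were 15.5 and 14.0 CPM against 9.64 and 4.14 CPM. The groups did not overlap, and the BcorΔE9-10 replicates were close together. The means were 14.8 ± 1.06 CPM (SD, n = 2) and 6.89 ± 3.89 CPM, and the log2 fold change was 1.12 with a standard error of 0.51. It was 0.61 without BcorWT replicate 2 and 1.82 without BcorWT replicate 1.

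*Smad2* on chromosome 18 and *Smad3* (ENSMUSG00000032402, chromosome 9 from 63646767 to 63757994) encode the receptor Smads of the TGF-beta branch. *Smad2* had 32.7 and 30.6 CPM in BcorΔE9-10 and 27.7 and 28.4 CPM in BcorWT, a log2 fold change of 0.17 (standard error 0.31), and varied little between libraries. *Smad3* had 82 and 60 counts against 18 and 52, or 15.2 and 9.78 CPM against 5.26 and 9.79 CPM. The groups of *Smad3* overlapped, since BcorΔE9-10 replicate 2 and BcorWT replicate 2 were at nearly the same level. Its log2 fold change was 0.71 (standard error 0.50), 0.34 without BcorWT replicate 1, 0.36 without BcorΔE9-10 replicate 1 and 1.24 without BcorWT replicate 2.

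*Smad4* and *Smad7*, both also on chromosome 18, encode the shared partner of the receptor Smads and the inhibitory Smad. *Smad4* had 24.4 and 26.1 CPM against 26.6 and 14.9 CPM, so that only BcorWT replicate 2 was low (log2 fold change 0.29, standard error 0.39). *Smad7* had 73 and 84 counts in BcorΔE9-10 and 58 and 13 in BcorWT, or 13.5 and 13.7 CPM against 16.9 and 2.45 CPM. BcorWT replicate 1 was thus the highest library for *Smad7* and BcorWT replicate 2 the lowest, while the BcorΔE9-10 replicates were nearly equal. Its log2 fold change of 0.53 (standard error 0.75) became -0.32 without BcorWT replicate 2 and 2.46 without BcorWT replicate 1. That of *Smad4* likewise became -0.07 without BcorWT replicate 2 and was 0.76 without BcorWT replicate 1.

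**Figure D2:**
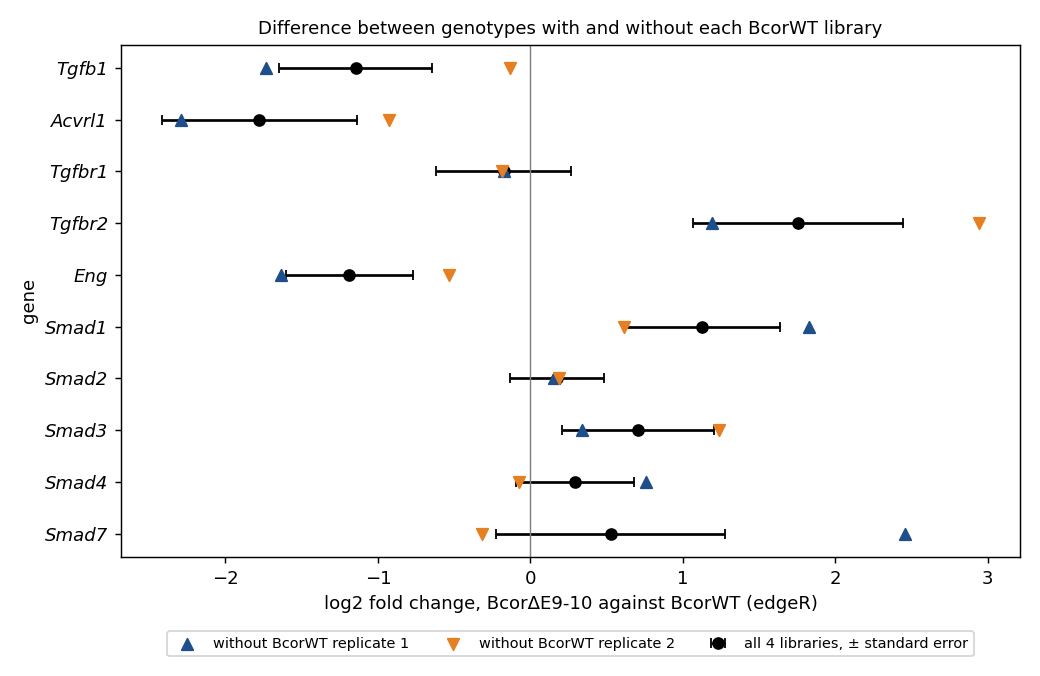
Log2 fold change of each gene (horizontal axis, BcorΔE9-10 against BcorWT, edgeR) with all 4 libraries (black, bars are the standard error) and with BcorWT replicate 1 (blue) or replicate 2 (orange) left out. *Smad4* and *Smad7* lie on both sides of 0 depending on the library left out, whereas *Tgfbr1* and *Smad2* hardly move.

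By sign, 6 genes lay above 0 and 4 below it, with a median log2 fold change of 0.23 beside -0.03 over all genes, and without BcorWT replicate 2 the number above 0 was 4. The libraries of the genotypes did not overlap for 7 of them, 3 higher and 4 lower, where 33.9% of all genes did not overlap (16.8% higher and 17.1% lower). At an adjusted p under 0.05 over all genes (edgeR quasi-likelihood test with Benjamini-Hochberg adjustment) 0 of the 10 were called, where 0.0166% of all genes were. Limma-voom and DESeq2 also called 0 each, where they called 0.0331 and 0.356% of all genes. At an unadjusted p under 0.05 edgeR called 3, limma-voom 4 and DESeq2 4, where 4.42, 4.27 and 4.19% of all genes were called. Since the genes were chosen with this comparison known, nothing is read from these counts. When BcorWT replicate 1 was left out, which leaves a single BcorWT library, the count after adjustment was 4 of the 10, where 4.94% of all genes (596) were called, and nothing is read from it either.

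Replicates of a genotype were also compared with each other. For 6 of the 10 genes the BcorWT replicates were at least 1 log2 unit apart, where 24.3% of all genes were. For 1 of the 10, *Acvrl1*, the BcorΔE9-10 replicates were as far apart, where 8.92% of all genes were. BcorWT replicate 2 was the highest library for 3 of the 10 genes (34.5% of all genes) and the lowest for another 3 (36.1% of all genes). *Tgfb1*, *Tgfbr2*, *Acvrl1* and *Eng* were 1.58, 1.42, 1.33 and 1.09 higher in BcorWT replicate 2 than in replicate 1 on the log2 scale (prior count 2). *Smad1* and *Smad7* differed between these libraries by -1.15 and -2.61.

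**Figure D3:**
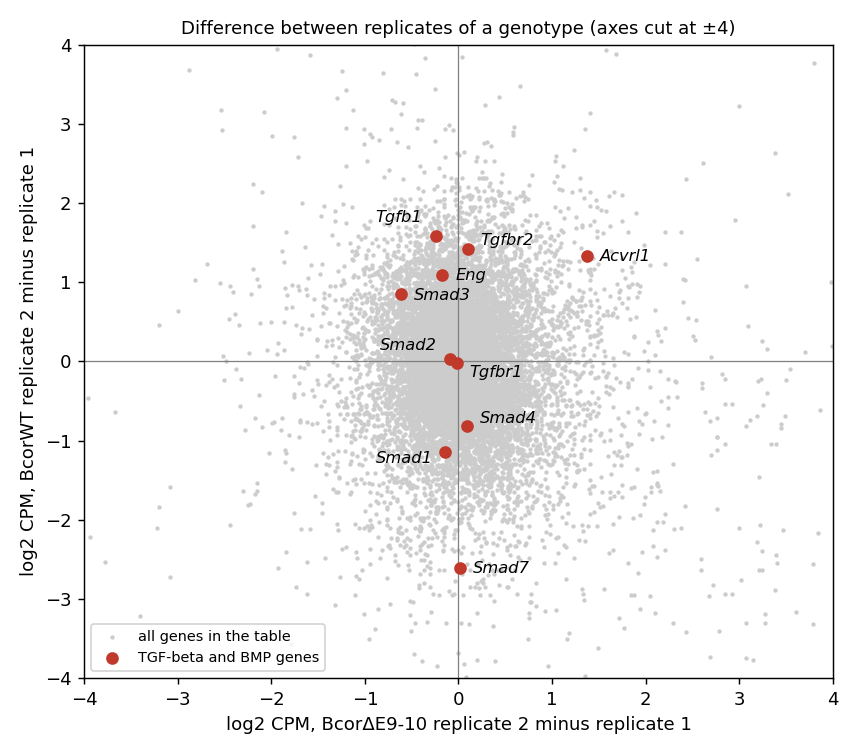
Difference in log2 CPM between replicates 2 and 1 of BcorΔE9-10 (horizontal) and of BcorWT (vertical) for all genes (grey) and for the 10 genes (red). Apart from *Acvrl1* the 10 genes lie between -0.61 and 0.10 on the horizontal axis, and they spread from -2.61 to 1.58 on the vertical axis.

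Markers of other cell types were read beside these genes. The lineage gate the study describes leaves out cells with CD5, B220, CD11b, Gr-1, 7-4 or Ter-119, and so most T, B, mature myeloid and late erythroid cells. Of 8 monocyte and macrophage markers 7 were in the table (not *Adgre1*). Their summed level was 779.6 and 784 CPM in BcorΔE9-10 and 949 and 1781 CPM in BcorWT. This sum was highest in BcorWT replicate 2, as 34.5% of all genes were, *Tgfb1*, *Acvrl1* and *Eng* among them. The sums below for eosinophils, basophils and mast cells, for megakaryocytes, for endothelial cells and for T and NK cells were highest there too. Most of the monocyte and macrophage excess in CPM was *Ly6c2*, at 550 CPM in BcorWT replicate 1 and 1365 CPM in replicate 2. *Csf1r* (35.6 and 53.3 CPM) and *Cd68* (4.96 and 10.2 CPM) were also higher in BcorWT replicate 2, and both were lower in BcorΔE9-10 (28.3 and 27.7 CPM, and 4.25 and 3.91 CPM), whereas *Irf8*, *Ccr2* and *F13a1* were nearly level between these libraries (280 and 274, 13.7 and 13.7, and 59.9 and 62.9 CPM) and *Ly86* was lower in replicate 2 (3.80 and 1.69 CPM). All 8 markers of eosinophils, basophils and mast cells were in the table, at 271 and 244 CPM in sum against 579 and 756 CPM. Of 6 megakaryocyte markers 3 were in the table, at 106 and 138 CPM against 102 and 265 CPM, most of it *Gp1bb*. Of 9 endothelial markers only *Pecam1*, *Esam* and *Vwf* were in the table, at 66.3 and 38.0 CPM in sum against 67.2 and 100.3 CPM, nearly all of it *Pecam1*, and the defining genes *Cdh5*, *Kdr*, *Tek*, *Tie1*, *Emcn* and *Plvap* were not. Of 9 erythroid markers 6 were in the table, with a sum of 130 and 118 CPM in BcorΔE9-10 against 60.7 and 71.9 CPM. Both BcorΔE9-10 libraries thus lay above both BcorWT libraries, as for 16.8% of all genes, *Tgfbr2*, *Smad1* and *Smad2* among them. All 8 neutrophil markers were in the table, with sums of 62955 and 137337 CPM against 87454 and 97445 CPM, most of it *S100a8* and *S100a9*. The BcorWT sums were close, but *Elane* (656 and 2140 CPM), *Ltf* (1918 and 4483 CPM) and *S100a9* (21491 and 32200.0 CPM) were higher in BcorWT replicate 2 than in replicate 1. *Camp* (8972 and 6123 CPM) and *Mpo* (6692 and 5331 CPM) were lower there, and *S100a8*, *Prtn3* and *Ctsg* differed less. *Elane* and *Ltf* had their highest level of the 4 libraries in BcorWT replicate 2. Of 7 stem cell markers 3 were in the table, at 33.8 and 27.4 CPM against 42.3 and 22.8 CPM. Of 5 B cell markers 2 were in the table, at 11.3 and 11.4 CPM against 17.5 and 9.41 CPM. Of 5 T and NK cell markers 2 were in the table (not *Cd3e*, *Cd3g* and *Cd8a*), at 148 and 129 CPM against 130 and 255 CPM, nearly all of it *Nkg7*. The part of these cells in the differences was not tested, and in bulk libraries fewer cells of a type and less RNA per cell cannot be told apart.

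The genes whose profile over the 4 libraries ran closest to that of *Acvrl1* were found by the root mean square difference of centred log2 CPM. They were *Cfp* at 0.066, *Lmo1* at 0.072, *Ear2* at 0.091, *Pirb* at 0.13 and *Mib2* at 0.24 log2 units. *Cfp* encodes properdin of the complement system, *Lmo1* a LIM-only transcription regulator, *Ear2* a ribonuclease of eosinophils, *Pirb* an inhibitory receptor of myeloid cells and *Mib2* a ubiquitin ligase. *Cfp* had 17 and 57 counts in BcorΔE9-10 and 42 and 149 in BcorWT, nearly the counts of *Acvrl1* itself. *Pirb* was the most abundant, with 10.9 and 37.5 CPM against 41.2 and 102.6 CPM. With 4 libraries many genes share a profile, and 108 lay within 0.5 log2 units of *Acvrl1*.

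**Figure D4:**
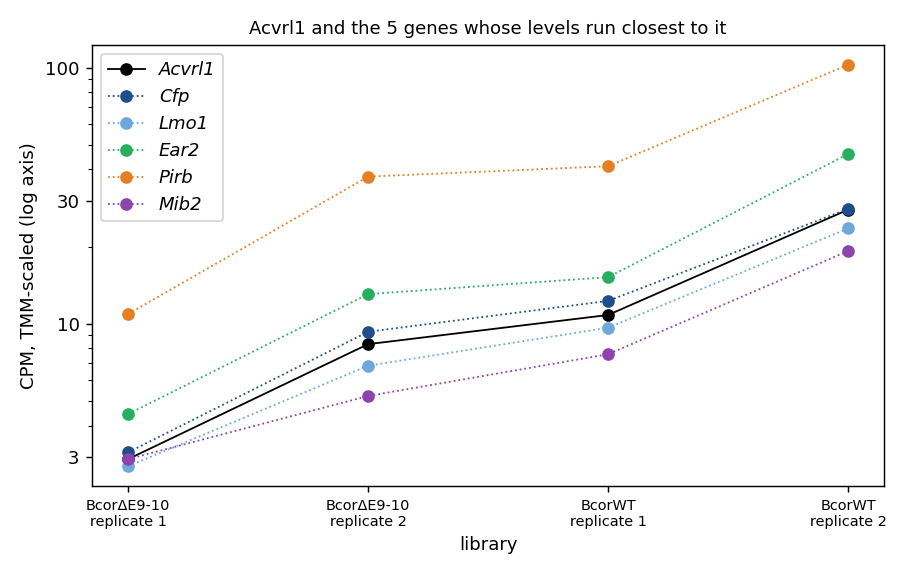
Level of *Acvrl1* (black) and of the 5 genes with the most similar profile in each library, in TMM-scaled CPM on a log axis. The lines only join points of 1 gene, as the libraries have no order, and each gene is lowest in BcorΔE9-10 replicate 1 and highest in BcorWT replicate 2.

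The wider pathway was read from a list of 106 symbols that leaves out the 10 genes, of which 58 were in the table. At an adjusted p under 0.05 the number called in either direction was 0 by edgeR, 0 by limma-voom and 0 by DESeq2, where these tools called 0.0166, 0.0331 and 0.356% of all genes, so that a count of 0 among 58 does not set the list apart. At an unadjusted p under 0.05 edgeR called 3, limma-voom 5 and DESeq2 3, where these tools called 4.42, 4.27 and 4.19% of all genes. The 3 of edgeR were all higher in BcorΔE9-10, where 1.34% of all genes were called higher and 3.07% lower. In edgeR 37 of the 58 lay above 0 and 21 below, with a median log2 fold change of 0.10. Of all 12067 genes 5750 lay above 0, with a median of -0.03. The groups did not overlap for 13 genes that were higher (22.4%) and for 3 that were lower (5.17%), beside 16.8 and 17.1% of all genes. When BcorWT replicate 1 was left out, 1 of the 58 was called, a smaller share than the 4.94% of all genes called in that fit. It was *Usp15*, a deubiquitinase that acts on receptor Smads and is named here because of its value, with a log2 fold change of 1.62 in that fit and 0.85 (standard error 0.45) with all libraries.

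**Figure D5:**
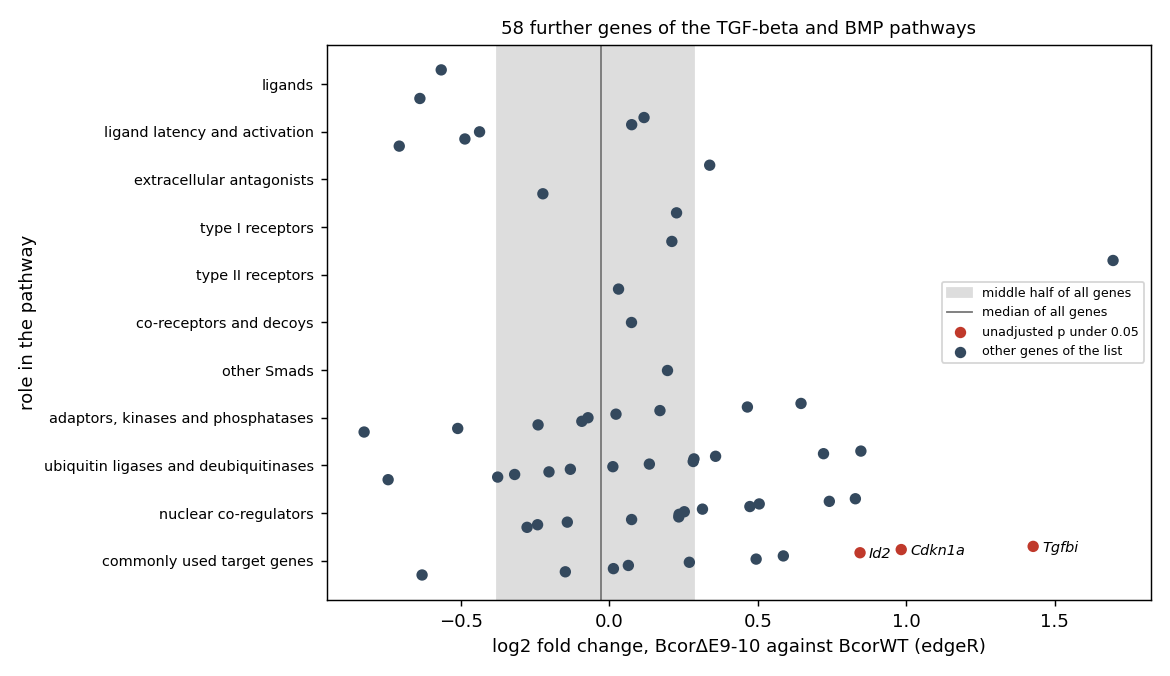
Log2 fold change (horizontal axis, edgeR) of the 58 further pathway genes by role, with the median of all genes as a line at -0.03 and their quartiles, -0.38 and 0.28, as the edges of the grey band. Red points are the 3 genes with an unadjusted p under 0.05, all of them target genes.

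Of 16 ligands listed besides *Tgfb1*, 2 were in the table, whose filter on genes is not given in the sources used here. *Inhba*, the subunit of activin A, had 8.13 and 33.4 CPM in BcorΔE9-10 and 31.0 and 33.9 CPM in BcorWT, low in 1 library only (log2 fold change -0.64, standard error 0.58). *Gdf3* had 10.9 and 6.52 CPM against 12.0 and 13.7 CPM (-0.57, standard error 0.45). Of the 10 genes for latency and activation of the ligand 5 were in the table. The log2 fold change was 0.08 (standard error 0.31) for *Nrros*, which holds latent TGF-beta on myeloid cells, -0.49 (0.32) for *Furin*, the protease that cleaves the TGF-beta precursor, and -0.44 (0.45) for *Ltbp3*, which binds latent TGF-beta. Of 8 extracellular antagonists, *Fstl3* was at -0.22 (0.34) and *Twsg1* at 0.34 (0.51), and the other 6 were not in the table.

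Among the remaining receptors 2 of 5 type I genes, 2 of 4 type II genes and 1 of 8 co-receptor and decoy genes were in the table, all at low levels. *Acvr2a*, a type II receptor of activin and BMP, had 7.76 and 4.56 CPM in BcorΔE9-10 and 3.21 and 0.753 CPM in BcorWT. Its groups did not overlap, and its log2 fold change was 1.70 with a standard error of 0.80, at an adjusted p of 0.945 in edgeR. *Bmpr2* was at 0.03 (0.59), *Acvr1b* at 0.23 (0.58), *Bmpr1a* at 0.21 (0.98) and the decoy receptor *Bambi* at 0.07 (0.61), as log2 fold changes with standard errors. *Smad5*, the relative of *Smad1* in the BMP branch, had 29.8 and 24.1 CPM against 29.8 and 17.5 CPM (0.20, standard error 0.38), and was the only one of 3 further Smad genes in the table. *Smad5* was thus more abundant than *Smad1*, and its groups overlapped.

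Regulators inside the cell were read by role. Of 11 adaptors, kinases and phosphatases 9 were in the table, led in level by *Tab2*, a partner of the kinase Tak1, *Fkbp1a*, which binds type I receptors, and *Strap*, which binds receptors and Smad7. Their log2 fold changes were 0.47 (standard error 0.36), -0.51 (0.39) and 0.02 (0.30). All 12 ubiquitin ligases and deubiquitinases were in the table, with *Stub1* at -0.13 (0.35), *Usp4* at 0.14 (0.31) and *Usp9x*, which acts on Smad4, at 0.28 (0.37). Of 13 nuclear co-regulators 12 were in the table, with *Sp1* at 0.24 (0.32), *Zeb2* at 0.25 (0.39) and *Crebbp* at 0.23 (0.33).

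Commonly used target genes were in the table for 10 of 16 symbols. They mix targets of the TGF-beta and the BMP branch, so their signs are not read as a direction of signalling. Of their log2 fold changes 8 lay above 0 and 2 below, where 5750 of all 12067 genes lay above 0. In edgeR 0 of the 10 passed the adjusted threshold, where 0.0166% of all genes did. *Tgfbi*, named for its induction by TGF-beta, had 30.7 and 24.6 CPM in BcorΔE9-10 and 5.26 and 14.9 CPM in BcorWT. Its groups did not overlap (1.43 on the log2 scale, standard error 0.50). *Cdkn1a*, the cell cycle inhibitor p21, had 33.5 and 23.8 CPM against 14.0 and 14.9 CPM (0.98, standard error 0.36). *Id2*, an inhibitor of helix-loop-helix factors, had 87.0 and 118 CPM against 57.8 and 56.5 CPM (0.84, standard error 0.32). These were the 3 genes with an unadjusted p under 0.05 in edgeR, where 4.42% of all genes had one. Their adjusted p in edgeR was 0.945 each. *Id1*, the target most used for BMP signalling, had 35.5 and 51.8 CPM against 61.3 and 35.8 CPM (-0.15, standard error 0.38), and *Junb*, the most abundant of the list, was at 0.01 (0.32). *Id3*, added after its values were seen so that the *Id* genes are complete, had 5.17 and 3.42 CPM against 4.09 and 9.03 CPM (-0.63, standard error 0.61). Among these *Id* genes the groups were thus apart for *Id2* and overlapping for *Id1* and *Id3*.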

How the data were processed

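KL cells of 4 libraries were profiled with Quant-seq. The authors removed low-quality reads, trimmed with cutadapt (1.7 in the submitters' processing notes), mapped to mm10 (GRCm38) with HISAT2 and counted reads per gene with featureCounts of Subread. The deposited values are counts without normalization. In BcorΔE9-10 replicate 2 and BcorWT replicate 1 a single gene was not whole, and the deposited values there were taken for expected counts, which is untested, and rounded. The filter behind the table is not given in the sources used here.

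From the counts, edgeR 4.0.16 in R 4.3.3 was run with filterByExpr (which removed 0 genes), TMM scaling, a quasi-likelihood fit on genotype and Benjamini-Hochberg adjustment over 12067 genes. Fold changes used a prior count of 0.125, and the standard error was the fold change divided by the square root of F. Groups were taken from the sample titles. Alternatives were other scalings and filters, limma-voom (limma 3.58.1), DESeq2 1.42.0, a replicate block, a prior count of 2, *Gm42418* left out and each library left out. The fit was tested on simulated counts. The 10 genes and all lists were chosen with earlier results of these data known. Of the wider list, the 3 most abundant genes of each role and those with an unadjusted p under 0.05 were named, and *Usp15* and *Id3* were named outside this rule, after their values were seen. Some marker genes are not reported here by name. Positions came from GENCODE M21. Figures used matplotlib 3.10.9.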

Additional observations from a re-analysis of the deposited data

How the results depend on the processing

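The log2 fold change of *Acvrl1* stayed between -1.83 and -1.71 over the 9 alternatives that kept all libraries, and between -2.71 and -0.93 when 1 library was left out. Signs changed for *Smad4* and *Smad7* alone among the 10 genes, both without BcorWT replicate 2, and *Smad7* was at 1.28 with limma-voom. The count of all genes called, 2, became 5 with at least 10 counts in every library, 4 with limma-voom, 43 with DESeq2, 14 with the replicate block, and 6 to 596 when 1 library was left out. The count among the 10 genes ranged from 0 to 4 and that among the 58 further genes from 0 to 1 in the latter fits, and both were 0 in all other settings run. The cause was not tested. The filter of 10 counts leaves out *Tgfbr2*, so that gene has no value there. Same-numbered libraries deviated from their group means with a correlation of -0.09 over all genes. With 2 libraries a group both replicate numbers give this same value, which cannot settle whether the numbers pair the samples. With the replicate block *Acvrl1* was at -1.80. With 1 library in a group, its spread is assumed to be that of the other group.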
